A study of Rattus norvegicus with 8 samples.

Results

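The 43 cytosolic ribosomal protein genes described here are those of 14217 genes on the array whose probe set carries 1 annotated symbol of the form *Rpl* or *Rps* with a number, *Rplp0* to *Rplp2*, or *Rpsa*. Genes of the *Rps6k* kinases, pseudogenes and like genes with symbols ending in l or l1 were left out, and each gene was represented by its probe set with the highest mean over the 8 arrays. Of the 43 members, 28 encode proteins of the large subunit, 14 encode proteins of the small subunit and 1, *Rplp0*, encodes the base of the stalk of the large subunit. *Rplp1*, *Rplp2*, *Rps27a*, *Rps19*, *Rpl38*, *Rpl10* and *Rps4x* have no probe set with a single symbol and were not analysed here as members.

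The reporter cells were peripheral blood mononuclear cells (PBMCs), a mixture of lymphocytes with monocytes, from 2 adult male Brown Norway (BN) rats, BN1 and BN2, about 180 days old. They were kept for 6 h in medium with 20% plasma, and each culture was measured on its own Affymetrix rat array, 2 arrays for each of 4 plasmas and 8 in all. The control plasma was pooled from 8 male Sprague-Dawley (SD) rats raised in normoxia (21% oxygen). Male SD rats exposed to intermittent hypoxia (IH) for 1 h a day on postnatal days 2 to 6 gave the other pools, of 5 rats for 5% IH and of 3 rats for 10% IH, and blood of all SD rats was taken in adulthood (PD114). The cells' own kind of plasma, autologous BN, was the background. The labels of the autologous arrays are not uniform, since 1 source label joins BN1 with BN2 and both arrays are labelled as stimulated with BN1 plasma. Each plasma was pooled once, so the spread within a group is that between 2 donors of cells and not between plasma donors. In cultures of mixed cells, fewer cells of a type and less RNA per cell cannot be told apart.

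Ribosomal proteins assemble with ribosomal RNA in the nucleolus into the small subunit, which reads the mRNA, and the large subunit, which joins the amino acids. Their mRNAs are among the most abundant of a lymphocyte, and in mammals they start with a cytidine and a run of pyrimidines, the terminal oligopyrimidine (TOP) tract. Through this tract the mTORC1 kinase and the LARP1 protein control how well these mRNAs are translated and stored, a control that acts largely on translation rather than on the mRNA level that an array measures.

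A sequence of this kind, which the choice of members did not use, was more frequent at the members' start sites than among all promoters. RefSeq promoter sequence of the rat assembly GRCr8 was matched for 38 of the 43 members, 2 of them by symbol because their gene number had no promoter entry. A C at the annotated start, followed on the sense strand by at least 4 bases that are each C or T, was found for 12 of 38 members (31.6%) and for 881 of 33469 promoters in the table (2.63%). Within 10 bases of the annotated start, such a tract was found for 27 of 38 members (71.1%) and for 28.9% of all promoters. The windows below are 30 bases long, 15 of them before the annotated start, and are read 5′ to 3′ on the gene's strand with capitals for such tracts, searched from 10 bases before to 10 bases after the annotated start, so that bases of a run further upstream stay in lower case. The first 4 belong to members that return in the 10% IH comparison. The last 4 belong to members that hardly varied and that have the tract at the annotated start. Of other members that hardly varied, *Rpl27a* and *Rpl23* had none at the annotated start, and *Rpl26* had none within 10 bases. The printed windows therefore do not stand for all members.
*Rpl14*, chr8:129163605-129163634, + strand: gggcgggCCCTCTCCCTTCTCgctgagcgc
*Rplp0*, chr12:46718376-46718405, - strand: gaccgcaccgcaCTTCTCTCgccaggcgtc
*Rpsa*, chr8:128728864-128728893, + strand: cctttccgcgctaccctggaacgggtccgt
*Rps9*, chr1:74430423-74430452, - strand: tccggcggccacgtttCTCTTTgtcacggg
*Rpl19*, chr10:83519049-83519078, + strand: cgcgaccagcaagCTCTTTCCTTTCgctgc
*Rpl35*, chr3:43165907-43165936, - strand: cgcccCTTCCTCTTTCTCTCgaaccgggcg
*Rpl37a*, chr9:81748076-81748105, + strand: gcatgcccgttgcgtCTCTTCCTCTTCggg
*Rps15*, chr7:10068101-10068130, - strand: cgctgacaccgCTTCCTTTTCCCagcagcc
A match describes the letters at the annotated start and is not a measured start of transcription. The window of *Rpsa* held no such tract within 10 bases of the annotated start, and that of *Rps9* held it 1 base after the annotated start.

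The members were among the brightest genes of the array. Levels are log2 values, and the level of a probe set depends on its probes as well as on its transcript, so the order of genes is an order of signals. The mean level over the 8 arrays was at least 10 for 38 members, where it lay between 12.46 and 13.77 with a median of 13.07, against a median of 6.57 over all genes. All 38 were among the 58 genes with the highest signal, and members made up 34 of the top 50 (68%). The 5 highest were *Rps29* (13.77), *Rps23* (13.64), *Rpl27a* (13.52), *Rpl26* (13.51) and *Rpl5* (13.48). *Rps29* read between 13.74 and 13.83 over the arrays and did not overlap *Rps23*, which read between 13.61 and 13.68. *Rpl27a*, which read between 13.50 and 13.53, lay within the range of *Rpl26*, 13.49 to 13.55. The genes with a higher or similar signal that are no members included the beta globin gene *Hbb*, first of all genes at 13.997, and *Eef1a1*, the elongation factor that brings aminoacyl-tRNA to the ribosome, at 13.38.

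The other 5 members read far lower. The mean level was 8.27 for *Rpl39*, 6.24 for *Rps13*, 5.10 for *Rpl28*, 4.93 for *Rps4y2* and 3.98 for *Rpl30*. For *Rpl28*, *Rpl30* and *Rps13*, whose proteins are parts of every cytosolic ribosome, 4 further probe sets that list the gene beside other symbols read between 12.85 and 13.10. Their signal may come from any of the listed genes. Whether the low level belongs to the gene or to the probe set that the choice of members took was not tested. In all, 36 probe sets listed a ribosomal protein among several symbols, and 34 of them had a mean level of at least 10. Of the 5 members with more than 1 single-symbol probe set, *Rpl14*, *Rpl3*, *Rpl7* and *Rps24* had a second one at 4.24, 7.50, 7.29 and 7.76, and *Rpsa* had all 3 bright, at 12.46, 12.38 and 11.43.

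**Figure D1:**
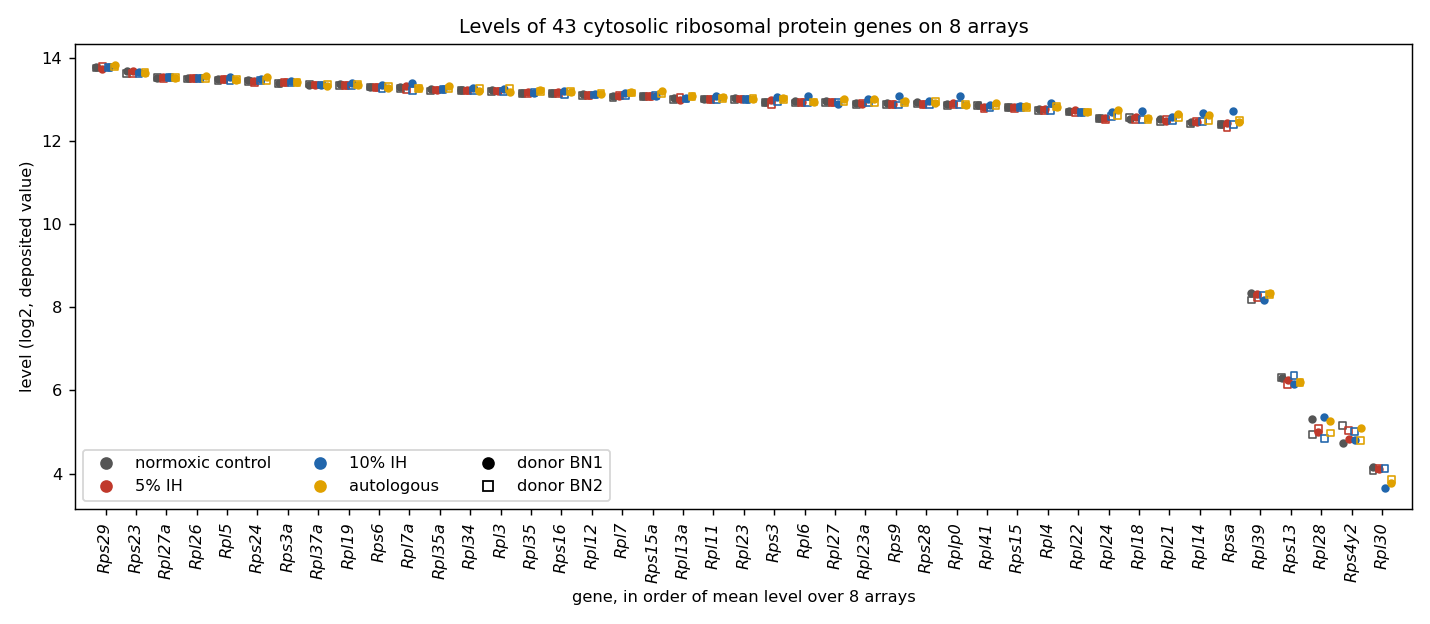
Level (log2, deposited values) of each of the 43 members on the 8 arrays, with genes on the horizontal axis in order of their mean, colours for the 4 plasmas, filled circles for donor BN1 and open squares for donor BN2. The 38 bright members lie in a narrow band between 12.32 and 13.83, and the 5 others between 3.65 and 8.35.

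The bright members hardly varied. The difference between the highest and the lowest of the 8 arrays had a median of 0.0968 on the log2 scale over the 38 genes, against 0.318 over all genes and 0.232 over the 871 genes with a mean level of at least 10. It was smallest for *Rpl27a* at 0.0292, and was 0.0387 for *Rpl23* and 0.0411 for *Rpl37a*. It was largest for *Rpsa*, the laminin receptor protein of the small subunit, at 0.394, followed by *Rpl14* at 0.269 and *Rplp0* at 0.234. The range was wider where the level was lower, with a median of 0.0786 in the upper 19 and 0.171 in the lower 19 of the 38, and Pearson's r between level and range was -0.682 across these genes, which share the same 8 arrays. Since the signals lie near the top of the table, whose highest value was 14.33, a compression of bright signals would also narrow their range, and this was not tested.

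The highest readings fell mostly to BN1 cells and the lowest to BN2 cells. The array of BN1 with 10% IH plasma was the highest of the 8 for 18 of the 38 bright members, and that of BN1 with autologous plasma for 13. The lowest reading fell to an array of BN2 cells with SD plasma for 32 of them, 11 with control, 11 with 5% IH and 10 with 10% IH plasma. The median deviation of the 38 genes from their own mean was 0.0378 on the array of BN1 with 10% IH plasma, 0.0223 on that of BN1 with autologous plasma, and between -0.0233 and 0.0072 on the other 6. The 871 genes of at least 10 shared the first of these shifts, with a median deviation of 0.0413 on the same array, and not the second, with 0.0005.

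**Figure D2:**
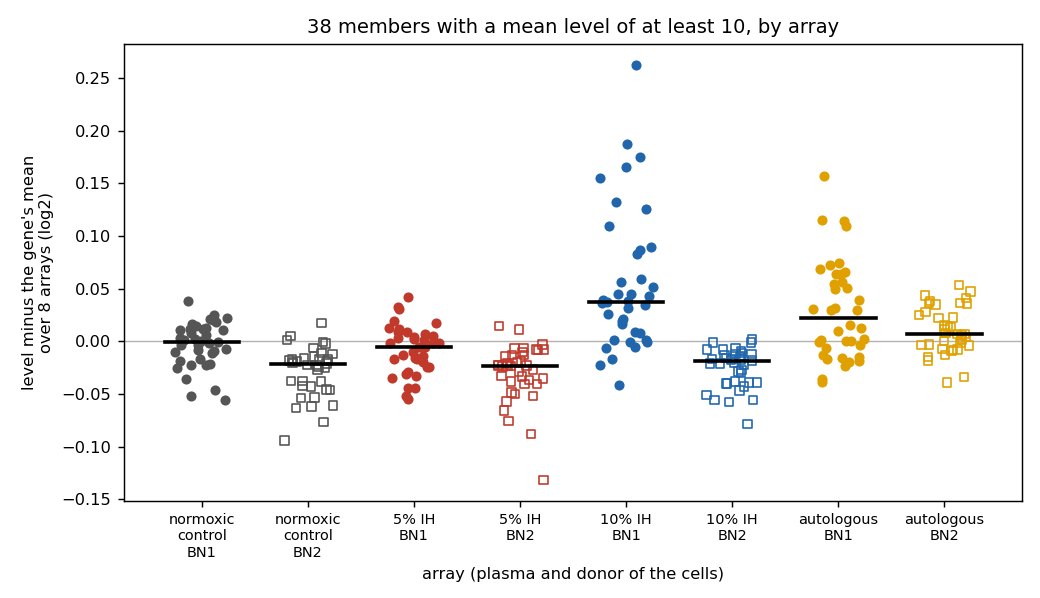
Level of each of the 38 bright members minus its own mean over 8 arrays (log2, vertical axis), by array, with 1 point per gene and a black line at the median of each array. The array of BN1 cells with 10% IH plasma holds the highest point, that of *Rpsa*, and has the highest median, 0.0378.

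With 5% IH plasma, no member was called different from control. By the study's criterion a gene differed where the 1-sided p of the Rank Product was under 0.05 and its group means differed by more than 0.263 on the log2 scale, which is 1.2-fold. The criterion was met by 0 of 43 members, while 2.5% of all genes met it. limma, adjusted by the Benjamini-Hochberg method across the whole table, called 0 members and 0% of all genes at an adjusted p under 0.05, and found 0 members and 1.94% of all genes at an unadjusted p under 0.05. The log2 ratios of the 38 bright members lay between -0.05 and 0.03, with a median of -0.00358. Each limma 95% interval held 0, and these intervals had a median width of 0.190 on either side. The outermost bounds of any bright member were -0.29 and 0.26, and for 37 of the 38 the whole interval lay inside 1.2-fold in either direction, against 28 to 32 of 38 in the other 5 comparisons.

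The largest differences between 5% IH and control were those of dim probe sets. *Rps13*, a protein of the small subunit, read 6.31 and 6.32 with control and 6.26 and 6.15 with 5% IH plasma, in BN1 and BN2 cells. The log2 ratio was -0.11 (SE 0.0977, limma adjusted p = 1), and the groups did not overlap. *Rpl28* differed by -0.30 in BN1 and by 0.14 in BN2 cells, with a log2 ratio of -0.08 (SE 0.183). *Rpl41*, which encodes the shortest ribosomal protein, was the bright member with the largest ratio, at -0.05 (SE 0.0848), from 12.86 and 12.84 with control to 12.82 and 12.77 with 5% IH plasma. Its 2 arrays of 5% IH plasma lay below both control arrays. Such complete separation was found for 0 members that were higher and 5 that were lower with 5% IH plasma (*Rps13*, *Rpl41*, *Rps28*, *Rpl11* and *Rps6*), against 13.2% of all genes higher and 12.3% lower. Of 43 members, 5 are close to the share of all genes that were lower.

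With 10% IH plasma, 0 members met the criterion and limma called 0, also at an unadjusted p under 0.05, while 4.3% of all genes met the criterion, limma called 0% of them and 4.12% had an unadjusted p under 0.05. The lowest limma adjusted p of a member was 0.92. The largest ratio of a bright member was that of *Rpsa*, which read 12.41 and 12.40 with control and 12.72 and 12.40 with 10% IH plasma, in BN1 and BN2 cells. The 10% IH array of BN1 stands apart from the other 7, which lay between 12.32 and 12.50. The log2 ratio was 0.15 (SE 0.114, limma adjusted p = 0.925), made of 0.308 in BN1 and -0.0038 in BN2 cells. The other probe sets of *Rpsa* gave 0.172 and 0.181 in BN1 and -0.0099 and -0.0035 in BN2 cells, so that all 3 were higher in BN1 cells alone.

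*Rpl14*, a protein of the large subunit, read 12.45 and 12.41 with control and 12.68 and 12.46 with 10% IH plasma. Its log2 ratio was 0.14 (SE 0.101, adjusted p = 0.924 by limma), of which 0.227 was found in BN1 and 0.0548 in BN2 cells. The levels of *Rplp0* were 12.88 and 12.86 with control and 13.09 and 12.88 with 10% IH plasma. For *Rplp0* the ratio was 0.12 (SE 0.0957), with 0.213 in BN1 and 0.0251 in BN2 cells. *Rps9* gave 0.182 in BN1 and -0.0095 in BN2 cells, and *Rpl24* gave 0.146 and 0.0434. In BN1 cells the ratio exceeded 0.1 for 10 of the 38 bright members, and in BN2 cells for 0. The second probe set of *Rpl14*, with a level of 4.24, gave -0.134 in BN1 and 0.0308 in BN2 cells and thus did not follow the first.

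The median over the 38 bright members was 0.0402 in BN1 and 0.0032 in BN2 cells, and over the 871 genes of at least 10 it was 0.0295 and -0.0066. Over the 43 members the median ratio of 10% IH to control was 0.0104 as deposited and 0.0104 after each array was centred on its median. It was -0.0126 after a further quantile normalization. That step sets the brightest values of every array equal, and many of these belong to members, so it cannot decide the direction. Of the members, 8 were higher in both 10% IH arrays than in both control arrays (*Rpl27a*, *Rpl34*, *Rpl7*, *Rps3*, *Rpl23a*, *Rpl24*, *Rplp0* and *Rpl14*) and 0 were lower, against 16.6% and 17.1% of all genes. After the further quantile normalization 7 were higher and 6 lower, and after centring 1 was higher. The ratio was larger where the level was lower, with Pearson's r of -0.594 across the 38 genes, which share their 4 arrays. By donor, r was -0.588 for the ratios in BN1 and -0.159 for those in BN2 cells. The dim probe set of *Rpl30* gave the largest ratio in size, -0.23 (SE 0.141, limma adjusted p = 0.92), with 3.65 in BN1 and 4.12 in BN2 cells with 10% IH plasma against 4.17 and 4.07 with control. The donors differed in direction, -0.515 in BN1 and 0.0522 in BN2 cells.

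**Figure D3:**
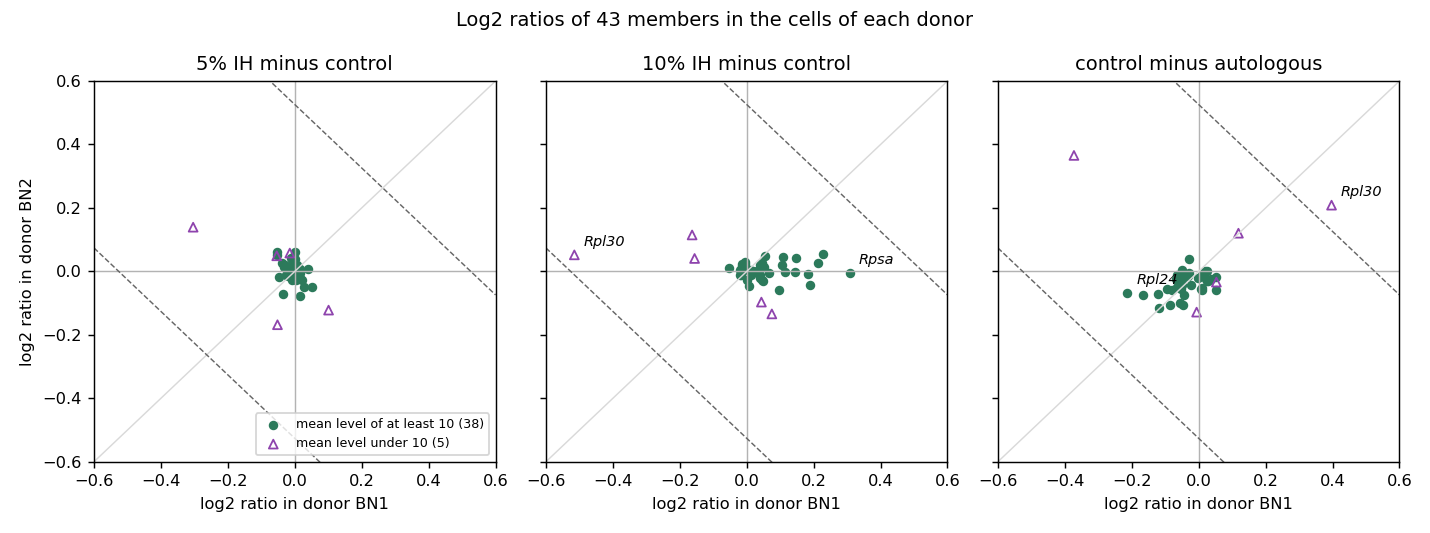
Log2 ratio of each of the 43 members in BN1 cells (horizontal axis) and BN2 cells (vertical axis) for 3 comparisons, with circles for the 38 bright members, triangles for the 5 others, a grey diagonal of equality and dashed lines where the mean of both donors reaches 0.263 in size. With 10% IH plasma the circles spread to the right, up to 0.31 for *Rpsa* in BN1 cells, and stay near 0 in BN2 cells.

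Between the IH plasmas, 0 members met the criterion and limma called 0, again 0 at an unadjusted p under 0.05, while 4.48% of all genes met the criterion, limma called 0% of them and 4.05% had an unadjusted p under 0.05. The comparison shares the 10% IH arrays with the one before it. *Rpsa* was lower with 5% than with 10% IH plasma by -0.29 in BN1 and -0.07 in BN2 cells, with a log2 ratio of -0.18 (SE 0.114, adjusted p = 0.981 by limma). The second largest of the bright members was *Rpl14*, at -0.11 (SE 0.101). The median of the 43 members was -0.0187 as deposited and -0.0113 after centring, but 0.00786 after a further quantile normalization. Complete separation was found for 0 members higher and 4 lower with 5% IH plasma, *Rpl24*, *Rpl23a*, *Rps24* and *Rpl7*, against 17.3% and 15.1% of all genes.

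Autologous plasma is the background of the culture, and each SD plasma was set against it. With control plasma the criterion was met by 1 of 43 members, the dim probe set of *Rpl30*, while 10.1% of all genes met it. This probe set read 4.17 and 4.07 with control and 3.77 and 3.86 with autologous plasma. The log2 ratio was 0.30 (SE 0.141), a fold of 1.23, with 0.397 in BN1 and 0.209 in BN2 cells, and the limma adjusted p was 0.532. limma called 0 members, 0 at an unadjusted p under 0.05, while it called 2.44% of all genes and found 10.6% at an unadjusted p under 0.05. The call of *Rpl30* was lost with a 2-sided p, with a filter on dim probe sets, and without the control or the autologous array of BN1, where the log2 ratio was 0.25 and 0.26. The bright probe sets that list *Rpl30* beside other symbols were not among those called, since 0 of the 36 probe sets with several symbols met the criterion here, and 1 of them did in each comparison of 10% IH with an SD plasma.

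Among the bright members the ratios of control to autologous plasma lay between -0.14 and 0.02. *Rpl24*, a protein of the large subunit, had the lowest, -0.14 (SE 0.0922, limma adjusted p = 0.726). It read 12.54 and 12.54 with control and 12.76 and 12.61 with autologous plasma, so that both autologous arrays were above both control arrays. *Rpl21* read 12.53 and 12.46 with control and 12.65 and 12.57 with autologous plasma, with a log2 ratio of -0.12 (SE 0.0882) that was nearly equal in the donors, -0.117 and -0.115. *Rpl14* gave -0.12 (SE 0.101), where the mean of its 2 probe sets gave 0.03, and *Rps15a* and *Rpl7* gave -0.10 and -0.10. Both control arrays were below both autologous arrays for 17 members and above them for 2, *Rps13* and *Rpl30*, against 20.9% and 19.7% of all genes. The counts were 19 lower after centring, and 8 lower and 10 higher after a further quantile normalization. The median of the 43 members was -0.0242 as deposited and -0.0414 after centring, but 0.0020 after a further quantile normalization. Over all genes the 3 medians were -0.00746, -0.0247 and -0.00924.

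The other SD plasmas share the autologous arrays with this comparison. With 5% IH plasma *Rpl30* again was the 1 member that met the criterion, with a log2 ratio to autologous plasma of 0.30 (SE 0.141, limma adjusted p = 0.529), 0.343 in BN1 and 0.258 in BN2 cells, while 10.4% of all genes met it. *Rpl24* gave -0.14 (SE 0.0922), *Rpl21* gave -0.11 (SE 0.0882) and *Rpsa* gave -0.11 (SE 0.114). Complete separation was found for 20 members lower and 1 higher, against 21.5% and 19.2% of all genes. The counts were 21 lower and 1 higher after centring, and 7 lower and 10 higher after a further quantile normalization. With 10% IH plasma 0 members met the criterion, while 9.01% of all genes did. *Rplp0* had the largest ratio, 0.12 (SE 0.0957, limma adjusted p = 0.775), with 0.224 in BN1 and 0.0131 in BN2 cells, and was the 1 member above both autologous arrays on both 10% IH arrays. *Rps15a* and *Rpl39* were lower, -0.08 (SE 0.0836) and -0.09 (SE 0.0973), and 8 members lay below both autologous arrays, against 17.4% of all genes higher and 20.5% lower. limma called 0 members in either comparison, and 2.75% and 1.81% of all genes. At an unadjusted p under 0.05 it found 0 members in either, and 10.8% and 9.43% of all genes.

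The direction of the family as a whole thus changed with a further quantile normalization. Centring kept the deposited direction against autologous plasma, with medians of -0.0414 with control, -0.0407 with 5% IH and -0.0226 with 10% IH plasma. For 5% IH with control, centring changed the median from -0.00385 to 0.00367. The deposited medians over the 43 members were negative in 5 of the 6 comparisons and the medians after a further quantile normalization were positive in the same 5, while the size of every one of them was at most 0.0414 on the log2 scale. Quantile normalization, which the authors' method includes, sets the brightest values of every array to be equal. With 34 of the 50 brightest genes being members, this step may remove part of a change shared by all of them, and how much it removed was not tested. The further step sets the brightest values equal again, so the sign of its medians cannot decide the direction.

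**Figure D4:**
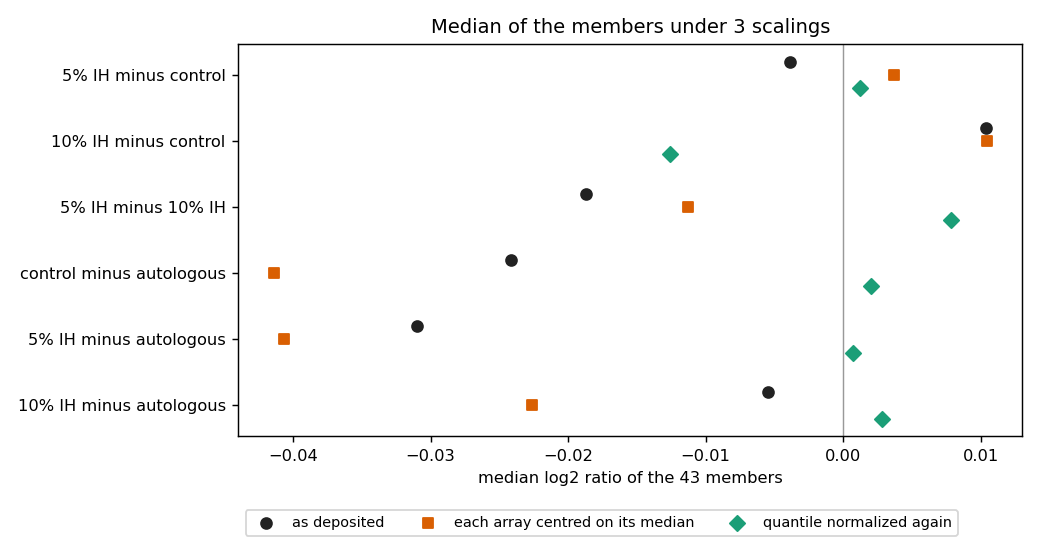
Median log2 ratio of the 43 members (horizontal axis) in the 6 comparisons, with black circles for the deposited values, orange squares after each array was centred on its median and green diamonds after a further quantile normalization. For control minus autologous the 3 values are -0.0242, -0.0414 and 0.0020.

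The members' own spread differed from that which limma assumed. The SD within groups had a median of 0.0319 over the 38 bright members, between 0.0119 and 0.119, against 0.0990 over all genes, and limma draws each gene's spread toward that of all genes. Its standard errors for these genes lay between 0.0811 and 0.114. With moderation that follows the level, they lay between 0.0413 and 0.0866, and the lowest adjusted p of a member was 0.911 for 10% IH against control and 0.392 for 5% IH against autologous plasma. The members at an unadjusted p under 0.05 were then 0, 0, 0, 1, 1 and 0 in the 6 comparisons, in the order in which they are given above.

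Between the donors the differences were small as well. Averaged over the 4 plasmas, 37 of the 38 bright members were lower in BN2 than in BN1 cells, with a median difference of -0.0323, and the 871 genes of at least 10 gave -0.0222. limma called 0 members and 0% of all genes between donors. At an unadjusted p under 0.05 it found 1 member, *Rpl28* (-0.27, SE 0.0979, limma adjusted p = 0.759), and 6.30% of all genes. The median difference of the bright members was -0.0608 with 10% IH plasma, where 35 of 38 were lower in BN2 cells, and -0.0142 with autologous plasma, where 21 were. The 871 genes of at least 10 gave -0.0689 with 10% IH plasma and 0.0057 with autologous plasma, so the first shift was not particular to the members.

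The members best known for a part beyond the ribosome, or for their use as a readout, passed no test with any plasma. *Rps6*, the target of the S6 kinases, read 13.29 and 13.30 with control, 13.29 and 13.29 with 5% IH, 13.34 and 13.27 with 10% IH and 13.28 and 13.31 with autologous plasma, in BN1 and BN2 cells. Its arrays overlapped between all groups except in the comparison of 5% IH with control, where the gap was smaller than the difference between donors with 10% IH plasma. *Rpl5* and *Rpl11*, which bind the p53 regulator MDM2 when they are outside the ribosome, read between 13.44 and 13.53 and between 13.00 and 13.08. *Rpl13a*, which belongs to a translation-silencing complex of myeloid cells, read between 12.99 and 13.08, and *Rpl22*, which T cell development requires, between 12.67 and 12.75. *Rps3*, with a part in DNA repair, read between 12.88 and 13.05, and its lowest array was BN2 cells with 5% IH plasma.

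Other genes of the translation machinery were described by lists. Between SD plasmas the criterion was met by 2.5% (5% IH with control), 4.3% (10% IH with control) and 4.48% (5% with 10% IH) of all genes. Against autologous plasma it was met by 10.1% with control, 10.4% with 5% IH and 9.01% with 10% IH plasma. Among the mitochondrial ribosomal protein and ribosome assembly genes limma called 0 in each comparison. Of 73 mitochondrial ribosomal protein genes, 0 met the criterion in any comparison between SD plasmas. In control against autologous plasma 2 were higher and 1 was lower, *Mrps15* (0.31, SE 0.111), *Mrps6* (0.29, SE 0.101) and *Mrps18c* (-0.40, SE 0.122). These calls are no more frequent than the 10.1% of all genes. With 5% IH against autologous plasma 2 were higher and 1 was lower, and with 10% IH 1 was lower. Of 18 measured of 24 other genes with TOP mRNAs, 1 met the criterion against autologous plasma with each SD plasma, *Vim* (0.42, SE 0.111, with control), the intermediate filament of monocytes and other cells, and 0 did between SD plasmas. Their median ratio of 10% IH to control was 0.0986 in BN1 and 0.0147 in BN2 cells. *Rack1*, a scaffold protein of the small subunit that the symbols did not select, had a mean level of 12.94 and gave 0.160 in BN1 and -0.0315 in BN2 cells in this comparison. It was the 1 measured of 4 genes of that kind.

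Of 48 measured of 50 ribosome assembly genes, 0 met the criterion between SD plasmas. With control against autologous plasma 1 was higher (*Bysl*, 0.35, SE 0.0901) and 2 were lower (*Dkc1*, -0.27, SE 0.110, and *Gnl2*, -0.27, SE 0.118), while 10.1% of all genes met the criterion. Of 25 measured of 28 translation initiation factors, 0 met it between SD plasmas. The RNA helicase *Eif4a1* was the 1 that was higher with 10% IH than with autologous plasma (0.28, SE 0.107), where 9.01% of all genes met it. Their median ratio of 10% IH to control was 0.0823 in BN1 and -0.0156 in BN2 cells. Of 5 measured of 10 paralogs of ribosomal proteins, among them the member *Rps4y2*, 1 met the criterion, *Rps27l*, a p53 target, in 5% against 10% IH plasma (0.32, SE 0.116, limma adjusted p = 0.981).

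Of 26 genes that act on mTORC1, on TOP translation or with MYC, 23 were measured. The criterion called 0 in 5% IH against control, beside 2.5% of all genes. In 10% IH against control it called 1 as higher, beside 4.3%. In 5% against 10% IH plasma it called 1 as higher and 1 as lower, beside 4.48%. In control against autologous plasma it called 1 as higher and 2 as lower, beside 10.1%. With so few genes, these counts do not stand out from the shares of all genes. *Ddit4*, an inhibitor of mTORC1 that glucocorticoids and hypoxia induce, read 8.92 and 8.95 with control, 9.11 and 9.05 with 5% IH, 9.47 and 9.32 with 10% IH and 9.45 and 9.96 with autologous plasma. It met the criterion in 10% IH against control (0.46, SE 0.151, limma adjusted p = 0.92) and was lower with control than with autologous plasma (-0.77, SE 0.151, limma adjusted p = 0.0422). *Myc*, a transcription factor that drives ribosome synthesis, read 8.99 and 8.86 with control, 9.04 and 8.93 with 5% IH, 8.69 and 8.72 with 10% IH and 8.52 and 8.44 with autologous plasma. It was higher with 5% IH than with autologous plasma (0.51, SE 0.093, limma adjusted p = 0.0274), met the criterion in control against autologous plasma (0.45, limma adjusted p = 0.0562) and was higher with 5% than with 10% IH plasma by the criterion (0.28). *Sesn1*, which also restrains mTORC1, was lower with control than with autologous plasma (-0.38, SE 0.135). The members themselves showed no call in these comparisons other than that of the dim *Rpl30* probe set.

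Markers of blood cell types were counted by the criterion as well. In control against autologous plasma 10.1% of all genes met it. Against control it was met by 2.5% of all genes with 5% IH and by 4.3% with 10% IH plasma. The leukocyte markers were present on all arrays, with *Ptprc* at a mean of 11.94. Monocyte markers met the criterion as higher in 9 of 12 with control than with autologous plasma, with a median log2 ratio of 1.00 and *Cd14* at 5.28, and 3 of the 12 as higher with 5% IH than with control. The mean level of the 12 was 6.04 and 6.32 with autologous and 7.67 to 7.97 with SD plasmas. Of 9 B cell markers 3 were higher and 1 was lower with control than with autologous plasma, and 3 were lower with 10% IH than with control. Of 14 T cell markers 2 were lower with control than with autologous plasma. Of 11 NK cell markers 1 was higher and 1 lower, of 7 neutrophil markers 3 were higher, and of 5 red cell markers 1 was lower with control than with autologous plasma. In lists this short, the T cell, NK cell and red cell counts do not stand out from the share of all genes. Of 8 proliferation markers 2 were higher with control than with autologous plasma, and 2 were lower with 10% IH than with control. Platelet markers gave a median ratio of 10% IH to control of 0.186 in BN1 and -0.0224 in BN2 cells, and T cell markers 0.0914 and -0.0011, while neutrophil markers gave -0.0667 and 0.0311 and red cell markers -0.0129 and 0.0331. The part of these markers in the members' small differences was not tested.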

How the data were processed

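Levels were measured in 8 cultures of PBMCs on Affymetrix rat arrays, 2 for each of 4 plasmas. The deposited values are on the log2 scale. The authors quantified the images in Expression Console and normalized them by Robust Multichip Analysis. This is a method of background correction, quantile normalization and probe summary. The submitters' notes also name Partek. The table of 31042 probe sets was used without further scaling. Gene names came from the platform annotation and start sites from RefSeq.

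Groups followed the labels. The Rank Product used all between-array ratios and 100 permutations. A model of the 4 groups with no donor term was fitted by limma 3.58.1 (R 4.3.3), p-values were adjusted by Benjamini-Hochberg across the table, and each SE is limma's. Both were also run on simulated data. The planted differences there were larger than any ratio of a bright member, so the recovery of such small differences was not tested. Replicate numbers give the donor of the cells and therefore pair the arrays. The correlation of same-donor deviations from group means was 0.240, 0.0590 and 0.165 among SD plasmas and -0.00387, -0.0833 and -0.171 with autologous plasma.

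Members and lists were chosen with earlier results of these data known. Genes were named as the 3 members with the largest ratios of a comparison, the highest and lowest levels, members with discordant probe sets, and a fixed set (*Rpl5*, *Rpl11*, *Rps6*, *Rps3*, *Rpl13a*, *Rplp0*, *Rpsa*, *Rpl22* and those not measured as members). Up to 3 genes were named per list. *Rpl23*, *Rpl37a*, *Rps9*, *Rpl21*, *Rpl7*, *Rack1*, *Hbb*, *Eef1a1*, the members whose groups did not overlap and the printed start sites outside this rule were chosen after their values were seen. The arrays' number limits the precision. Alternatives changed the ratios, the p, the filters, the scaling, the probe sets, the moderation, the arrays in the fit and the arrays left out.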

Additional observations from a re-analysis of the deposited data

How the results depend on the processing

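limma called 0 members in each comparison and between donors under every alternative run, and with a replicate block for the donor the counts were 0 by limma and 0, 0, 0, 1, 1 and 0 by the criterion (5% IH and 10% IH with control, 5% with 10% IH, then control, 5% IH and 10% IH with autologous plasma), so that pairing changed no call. The 1 call against autologous plasma, with control and with 5% IH, fell to 0 with a 2-sided p, with the share of false predictions and with either filter on dim probe sets. Leaving out each array gave 0 to 1, 0 to 2, 0 to 3, 0 to 1, 0 to 1 and 0 to 1 members by the criterion. Without the control array of BN2, *Rpl28* reached -0.26 in 5% IH with control. Without the 10% IH array of BN2, *Rpl30* (-0.46) and *Rpsa* (0.31) passed in 10% IH with control.

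Member medians ranged with an array left out from -0.0191 to 0.0115, -0.00695 to 0.0407, -0.0453 to 0.00255, -0.0417 to -0.0122, -0.0457 to -0.0208 and -0.0369 to 0.0135. After a further quantile normalization they were 0.00119 (5% IH with control), 0.00786 (5% with 10% IH), 0.00201 (control with autologous) and 0.000688 (5% IH with autologous), and after centring 0.00367 (5% IH with control) and -0.0414 (control with autologous). The mean over members was -0.00714 and -0.0230 in these 2, and with all probe sets of a gene averaged the latter median was -0.0213. Probe sets with several symbols, a choice made after seeing the data like the bright members alone and the quantile step for separations, gave -0.00195, -0.0493 and -0.0536 (5% IH with control, control and 5% IH with autologous).

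Members with complete separation after centring were 1 higher and 1 lower (5% IH with control), 1 higher (10% IH with control), 1 higher and 0 lower (5% with 10% IH) and 0 higher (10% IH with autologous). By the mean of probe sets 1 was higher in 5% IH with control and 1 in 5% with 10% IH. The quantile step gave 3 higher (5% IH with control), 6 lower (10% IH with control), 5 higher and 1 lower (5% with 10% IH), 10 and 8 (control with autologous), 10 and 7 (5% IH with autologous) and 4 and 4 (10% IH with autologous). Keeping *Rps19bp1* was not run, since no probe set carries it alone. The number of arrays limits these results, and whether bright signals were compressed was not tested.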
